A study of Mus musculus with 6 samples.

Results

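The CDK4/6-RB axis was followed here through 9 genes, which were taken by name from the 23525 genes of the deposited normalized table. They are Cdkn2a, Cdkn2b and Cdkn2c of the INK4 family, the kinase genes Cdk4 and Cdk6, the D-type cyclin genes Ccnd1, Ccnd2 and Ccnd3, and Rb1. All 9 were found and all 9 passed the filter on low counts. Both annotated transcripts of Cdkn2a were also followed. The libraries were made from total RNA of organoids, cultures of tumour epithelium in matrigel, started from pancreatic tumours. All came from C57/Bl6 mice in which Cre under the Pdx1 promoter, active in pancreatic epithelium, switches on a Trp53 R172H allele. Lines 6, 23 and 34 each gave 1 library that still carries a wild-type Trp53 allele (titled R172H/+, called heterozygous here, n = 3) and 1 titled R172H/LOH (loss of heterozygosity, n = 3), whose Trp53 genotype is labelled with the R172H allele and no other. The sample names of the LOH libraries carry an ending of unstated meaning, and what it stands for cannot be told apart from genotype. The question put to the members was which of them differ when the wild-type Trp53 allele is lost.

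D-type cyclins bind CDK4 or CDK6, and the resulting kinases phosphorylate RB, which then lets go of E2F transcription factors that drive genes of DNA replication. INK4 proteins bind CDK4 and CDK6 and block them. Cdkn2a is unusual in that it encodes an INK4 protein, p16, and also ARF (p19 in the mouse), an unrelated protein that binds MDM2 and so protects p53 from degradation. In human pancreatic cancer CDKN2A is among the genes most often lost.

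Both products come from 1 gene because each transcript starts at its own first exon and then joins the same second exon in a different reading frame. Cdkn2a (ENSMUSG00000044303.6) lies on the minus strand of chromosome 4 at 89274471 to 89294653 in GRCm38. The Arf transcript (ENSMUST00000107131.1) starts in an exon at 89294334 to 89294653, and the Ink4a transcript (ENSMUST00000060501.4) in an exon at 89281986 to 89282192, with 12141 bases between the 2 exons. The coding parts of the first exons are shown because the transcripts do not share them. Each is written 5′ to 3′ in lower case from its start codon (chr4:89294334-89294523 for Arf and chr4:89281986-89282111 for Ink4a, minus strand), followed in capitals by the first 30 bases of the shared second exon. They were read from the GENCODE release 21 transcripts.
Arf: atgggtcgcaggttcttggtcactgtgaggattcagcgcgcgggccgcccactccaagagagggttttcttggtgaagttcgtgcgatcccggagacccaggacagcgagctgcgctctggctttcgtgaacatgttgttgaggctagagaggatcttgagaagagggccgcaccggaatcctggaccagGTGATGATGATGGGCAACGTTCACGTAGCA
Ink4a: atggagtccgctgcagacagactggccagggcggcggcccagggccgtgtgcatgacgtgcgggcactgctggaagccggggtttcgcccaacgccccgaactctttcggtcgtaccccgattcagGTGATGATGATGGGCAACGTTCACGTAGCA
The capitals are the same in both, but 190 coding bases stand before them in Arf, which leaves 1 base after the last whole codon, and 126 in Ink4a, which leaves 0. The shared bases are therefore read in different frames. Of the 895 bases of the Arf transcript and the 852 of the Ink4a transcript, 575 are common to both, and 320 bases of Arf and 277 of Ink4a stand in 1 of them only. The 320 bases of Arf are its first exon. Of the 277 of Ink4a, 207 are its first exon. The rest end its last exon, which is annotated with 304 bases in Ink4a and stops earlier, at 234, in Arf. Whether Arf RNA ran on into that end, where its reads would count as Ink4a, was not tested.

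Most Cdkn2a RNA was the Arf form in every library (84.7% to 99.0% of its TPM), and the Ink4a form took a smaller part of it in the LOH libraries. The Arf transcript had 54.99, 44.61 and 47.23 TPM (a relative abundance corrected for transcript length) in the heterozygous libraries of lines 6, 23 and 34, and 64.56, 61.43 and 67.9 TPM in the LOH libraries. The LOH values all lay above the heterozygous ones. The Ink4a transcript had 9.93, 6.49 and 2.42 TPM in the heterozygous libraries and 1.1, 0.65 and 2.32 TPM in the LOH libraries. The groups only just failed to overlap: the Arf-to-Ink4a TPM ratio went from 5.54 to 58.7 in line 6 and from 6.87 to 94.5 in line 23, but only from 19.5 to 29.3 in line 34. The estimated counts behind these levels were small for Ink4a, at 163.19, 58.4 and 46.72 in the heterozygous and 13.91, 13.97 and 44.01 in the LOH libraries.

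Ink4a made up 15.3%, 12.7% and 4.87% of the Cdkn2a TPM in heterozygous lines 6, 23 and 34 and 1.68%, 1.047% and 3.30% in the LOH libraries. Every line had a lower share in its LOH library, and the groups did not overlap. The mean share was 10.96% ± 5.43 (SD, n = 3) against 2.01% ± 1.16 (SD, n = 3), a difference of -8.95 percentage points. By an exact two-sided permutation test p was 0.1, and with 3 libraries a group no smaller p can be had. With both libraries of line 34 left out the difference was -12.6 points, and with line 6 left out it was -6.61 points.

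Neither transcript passed the test across all transcripts. In edgeR's quasi-likelihood test on 36699 transcripts, 0.0272% had a Benjamini-Hochberg adjusted p under 0.05, the threshold used throughout. Arf had a log2 fold change (LOH over heterozygous, as all below) of 0.83 (SE 0.17) and an edgeR adjusted p of 0.124. Ink4a had -1.71 (SE 0.70) and an edgeR adjusted p of 0.355. DESeq2, which called 6.50% of the transcripts, gave Arf an adjusted p of 6.0e-05 and Ink4a 0.188. On CPM (counts scaled to library size) the Ink4a groups overlapped, since LOH line 34 at 2.04 CPM lay above heterozygous line 34 at 1.57 CPM. The reads are shared between the transcripts by an estimate, and the part of that estimate in the Ink4a values was not tested.

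**Figure D1:**
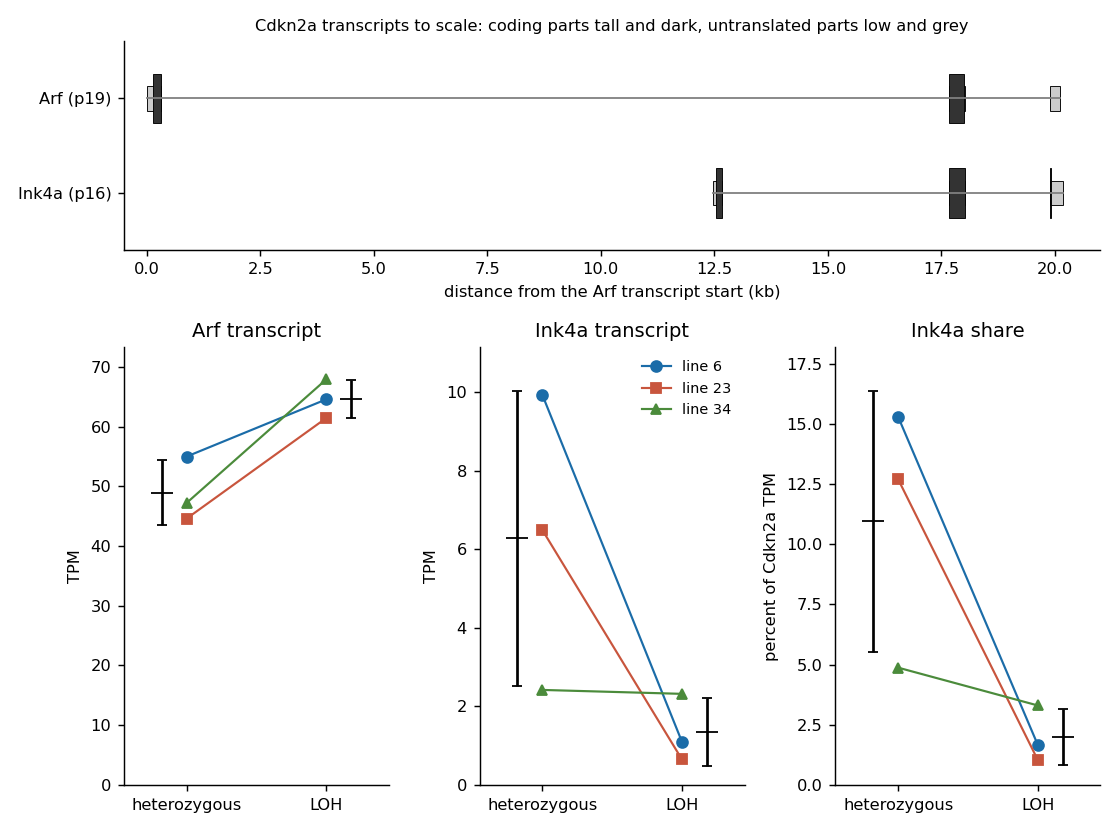
Top, the Cdkn2a transcripts to scale by distance from the Arf start in kb, with coding parts tall and dark. Bottom, TPM of Arf and of Ink4a and the Ink4a percent of Cdkn2a TPM, with 1 symbol per library, a line joining the libraries of an organoid line and black marks for the mean ± SD of 3 libraries; Ink4a is far lower in LOH in lines 6 and 23 and nearly level in line 34 (2.42 and 2.32 TPM).

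The 300 bases around each Cdkn2a start are shown because the transcripts use separate promoters. They run from 250 bases before to 50 after the RefSeq start (GRCm38.p6, minus strand) and lie at chr4:89294570-89294869 for Arf and chr4:89282143-89282442 for Ink4a. The Arf RefSeq start, 89294619, differs from the GENCODE start above. Capitals mark E2F-type words, which were TTTCCCGC, TTTCGCGC, TTTGCCGC and TTTGGCGC on either strand.
Arf promoter: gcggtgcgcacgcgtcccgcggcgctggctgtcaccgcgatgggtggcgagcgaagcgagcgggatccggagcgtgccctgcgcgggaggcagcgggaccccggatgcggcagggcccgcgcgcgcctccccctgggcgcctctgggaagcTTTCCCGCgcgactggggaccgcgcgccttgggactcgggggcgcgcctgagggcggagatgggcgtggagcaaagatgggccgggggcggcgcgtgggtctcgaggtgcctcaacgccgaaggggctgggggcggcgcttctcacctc
Ink4a promoter: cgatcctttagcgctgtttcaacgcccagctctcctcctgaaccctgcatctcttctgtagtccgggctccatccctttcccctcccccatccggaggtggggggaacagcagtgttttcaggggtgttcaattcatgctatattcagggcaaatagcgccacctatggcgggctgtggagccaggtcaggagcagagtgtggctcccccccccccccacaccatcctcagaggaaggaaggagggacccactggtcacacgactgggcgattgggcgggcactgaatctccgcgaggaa
The Arf window held 1 such word, 99 bases before the start, and the Ink4a window 0, where 2.26% of 32851 RefSeq promoter windows of that length held at least 1. GC content was 77% in the Arf window and 60.3% in the Ink4a window. The Sp1-type word GGGCGG, found in 35.7% of all windows, occurred 3 times in the Arf window and 1 time in the Ink4a window. A match describes letters in a window and says nothing on binding here.

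Counted as a gene, Cdkn2a reached 37.4, 36.0 and 33.9 CPM in heterozygous lines 6, 23 and 34, beside 51.3, 53.4 and 65.7 CPM with LOH. All 3 LOH libraries were above all 3 heterozygous ones, and line 34 had both the lowest and the highest value. The means were 35.8 ± 1.8 and 56.8 ± 7.8 CPM (SD, n = 3 each), with a log2 fold change of 0.67 (SE 0.18) and an edgeR adjusted p of 0.0787, which missed the threshold. That call turned on the tool and on 1 library: DESeq2, which called 15.8% of all genes, gave 0.0136, and leaving out LOH line 6, after which edgeR called 16.2% of genes, gave 0.0445. On the TPM scale the groups overlapped (49.6 to 64.9 TPM heterozygous and 62.1 to 70.2 TPM LOH), and limma on log2(TPM + 1) gave a log2 fold change of 0.26 with an adjusted p of 0.379. TPM shifts every gene: the median log2 fold change over all genes was 0.06 on scaled counts and -0.35 on log2(TPM + 1). The 869 tested genes of chromosome 4 had a median of -0.28 on scaled counts. In bulk RNA fewer cells of a type and less RNA per cell cannot be told apart, here and below.

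The other INK4 genes among the members did not pass. Cdkn2b, which encodes p15 and lies next to Cdkn2a on chromosome 4 (89306299 to 89311039, minus strand), had 23.7 to 30.3 CPM in the heterozygous and 21.8 to 36.2 CPM in the LOH libraries. The edgeR fold change was 0.03 (log2, SE 0.26, adjusted p 0.950), and that sign flipped to -0.37 on log2(TPM + 1). Cdkn2c, which encodes p18 (chromosome 4, 109660876 to 109667189, minus strand), had 22.95, 29.6 and 29.7 CPM heterozygous and 18.1, 20.4 and 23.5 CPM LOH. It was lower in the LOH library of every line, but the groups overlapped and the log2 fold change of -0.41 (SE 0.20) had an edgeR adjusted p of 0.258. On log2(TPM + 1), where limma called 15.0% of genes, it had -0.68 with an adjusted p of 0.0489. On scaled counts its log2 ratios in lines 6, 23 and 34 were -0.34, -0.54 and -0.34. The tested genes of chromosome 4 had medians of -0.31, -0.37 and -0.21 in these lines.

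Added up per library in TPM, the INK4 genes among the members had similar levels in both groups, 94.96 ± 8.25 and 94.2 ± 2.5 TPM (SD, n = 3 each). That turned on the scale: the log2 difference was -0.0088 here, 0.39 on TPM over the protein-coding table and 0.22 on summed CPM. The make-up differed: Cdkn2a was 58.0% ± 4.2 of that sum in the heterozygous and 70.1% ± 5.1 in the LOH libraries, and Cdkn2c 16.9% ± 2.6 and 10.1% ± 0.6. Most of the Cdkn2a part is Arf, which is no INK4 protein. With the Ink4a transcript in place of the gene, an alternative chosen after seeing the data, the sum was 46.0 ± 5.1 and 29.5 ± 4.7 TPM and the groups did not overlap. These sums were made from members picked with results known and carry no test.

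Cdk4 was the 1 member of 9 that passed the test: it fell in the LOH libraries, with a mean CPM 49.5% lower. Cdk4 (ENSMUSG00000006728.12; chromosome 10, 127063534 to 127067920, plus strand) had 201, 238 and 232 CPM in heterozygous lines 6, 23 and 34, and LOH lines 6, 23 and 34 had 119, 120.2 and 100.1 CPM. The groups were far apart, with no LOH library above 120.2 CPM and no heterozygous library under 201 CPM. The means were 223.8 ± 19.8 and 113.1 ± 11.3 CPM (SD, n = 3 each), and the log2 fold change was -0.98 (SE 0.17) with an edgeR adjusted p of 0.0306. In that test 5.21% of 14537 genes passed, and 1.66% passed as lower in LOH, and a single call among 9 members is too few to set the axis apart from that background.

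Cdk4 kept its direction throughout, but not its call. With the organoid line as a block, where 1.47% of genes passed, the edgeR adjusted p was 0.105. It was 0.117, 0.147 and 0.176 without heterozygous line 6, 23 or 34. Without both libraries of line 23 or of line 34 it was 0.207 and 0.232. In each of these leave-outs edgeR called 0 of all genes, so the lost call there is not particular to Cdk4. The Cdk4 adjusted p was 0.0512 without LOH line 23 (3.02% of genes called) and 0.0422 without both libraries of line 6 (9.66% called). Its log2 fold change stayed between -1.45 and -0.88 over 20 alternatives. All 8 tested Cdk4 transcripts of 9 annotated were below 0, with log2 fold changes from -1.26 to -0.60, and none passed in edgeR's test across all transcripts (lowest adjusted p 0.164). Chromosome 10 genes had medians of -0.43, -0.0035 and 0.09 in lines 6, 23 and 34, against log2 ratios of -0.76, -0.99 and -1.21 for Cdk4. Tspan31, which overlaps Cdk4 on the opposite strand, had a log2 fold change of -0.19 (edgeR adjusted p 0.584). Whether reads were counted by strand is not given in the sources used here, so reads of the overlap cannot be told apart.

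The Cdk4 promoter is shown because Cdk4 was the member that passed. The window is chr10:127063285-127063584 (GRCm38.p6, plus strand, 250 bases before to 50 after the RefSeq start), and capitals mark the E-box CACGTG, the word that MYC and related factors bind.
Cdk4 promoter: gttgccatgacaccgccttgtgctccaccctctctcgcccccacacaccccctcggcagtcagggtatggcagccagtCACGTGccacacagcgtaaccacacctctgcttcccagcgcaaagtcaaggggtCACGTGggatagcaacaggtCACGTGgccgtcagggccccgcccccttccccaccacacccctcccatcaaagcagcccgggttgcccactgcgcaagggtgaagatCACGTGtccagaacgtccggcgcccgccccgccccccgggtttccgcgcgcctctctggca
CACGTG occurred 4 times, all before the start, the nearest 3 at 118, 98 and 11 bases from it. At least 1 was present in 7.15% of the 32851 windows and 4 or more in 0.0244% (8 windows). The E2F-type words were not among its letters. Of the 9 members 6 had an entry, with 9 windows in all, and Cdk6 and Cdkn2c had 1 CACGTG each in 1 window. No value here bears on what binds there.

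Cdk6 (chromosome 5, 3341485 to 3531008, plus strand), the other kinase gene, did not pass. Its CPM was 253, 143 and 209 without and 150, 193 and 230 with LOH, so line 6 was lower and lines 23 and 34 higher in LOH. The groups overlapped, with a fold change of -0.08 (log2, SE 0.27; edgeR adjusted p 0.876) that turned to 0.23 without both libraries of line 6. Limma on log2(TPM + 1) gave -0.54 with an adjusted p of 0.246, beside a median of -0.35 over all genes on that scale. With a trend on GC and length removed, as described with Rb1 below, edgeR gave -0.37 (SE 0.19, adjusted p 0.247). The longest Cdk6 transcript has 45.1% GC and 11525 bases. Per length Cdk4 was the more abundant, at 232 ± 26 TPM heterozygous and 87.9 ± 29.9 TPM LOH, beside 34.8 ± 12.3 and 22.9 ± 5.1 TPM for Cdk6 (SD, n = 3 each). Together they had 267 ± 38 and 110.8 ± 25.1 TPM, a log2 difference of -1.28 that was -0.49 on summed CPM. On CPM the longer Cdk6 weighs more, and the scales also differ in the shift over all genes given with Cdkn2a.

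Ccnd1 was the most abundant member in the heterozygous libraries and had the largest negative fold change of the 9, without passing the test. Ccnd1 (ENSMUSG00000070348.5; chromosome 7, 144929931 to 144939925, minus strand) encodes cyclin D1, a growth-factor responsive partner of CDK4 and CDK6. Heterozygous lines 6, 23 and 34 gave 896, 900.2 and 954 CPM, and their LOH counterparts 377, 273 and 625 CPM. The heterozygous values were tight and all above the LOH ones, among which line 34 stood highest. The means were 917 ± 33 and 425 ± 181 CPM (SD, n = 3 each), with a log2 fold change of -1.11 (SE 0.31) and an edgeR adjusted p of 0.0818. Without LOH line 34, where edgeR called 5.27% of genes, the log2 fold change was -1.50 and the adjusted p 0.0265. DESeq2 gave an adjusted p of 0.0111 and limma on log2(TPM + 1) 0.0233. Oraov1, which overlaps Ccnd1 on the opposite strand, had 9.84 to 11.5 CPM and 8.62 to 9.83 CPM.

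On scaled counts the other cyclins gave no common direction. Ccnd2 (chromosome 6, 127125162 to 127152193, minus strand) had 857, 612 and 560.1 CPM heterozygous and 450, 384 and 672 CPM LOH, lower in lines 6 and 23 and higher in line 34. The fold change of -0.43 (log2, SE 0.28) had an edgeR adjusted p of 0.368. It was -0.25 without heterozygous line 6, -0.27 without LOH line 23, -0.70 without LOH line 34, -0.18 without both libraries of line 6 and -0.82 without both of line 34, and none of these passed. On TPM Ccnd2 was lower in LOH in every line, and the groups did not overlap (124.4 to 202.6 TPM heterozygous, 64.5 to 102.3 TPM LOH). Limma on log2(TPM + 1) gave -0.90 with an adjusted p of 0.0592, beside a median of -0.35 over all genes on that scale. Ccnd3 (chromosome 17, 47505051 to 47599691, plus strand) had 47.1 to 50.9 CPM heterozygous and 40.4 to 59.6 CPM LOH. The fold change of 0.10 (log2, SE 0.20; edgeR adjusted p 0.777) flipped to -0.15 on log2(TPM + 1). It overlaps Bysl on the opposite strand, which had 44.2 to 49.7 CPM and 14.2 to 46.3 CPM.

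Summed in TPM, the D-type cyclins had 482 ± 71 in the heterozygous and 216 ± 51 in the LOH libraries (SD, n = 3 each), and the groups did not overlap. The log2 difference was -1.18, and -0.79 on summed CPM. Ccnd1 took 61.5% ± 4.0 of the sum in the heterozygous and 47.9% ± 5.9 in the LOH libraries, and Ccnd3 6.22% ± 0.33 and 13.5% ± 5.5. The ratio of summed cyclin to summed kinase TPM overlapped between the groups, at 1.66 to 1.92 and 1.51 to 2.97.

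**Figure D2:**
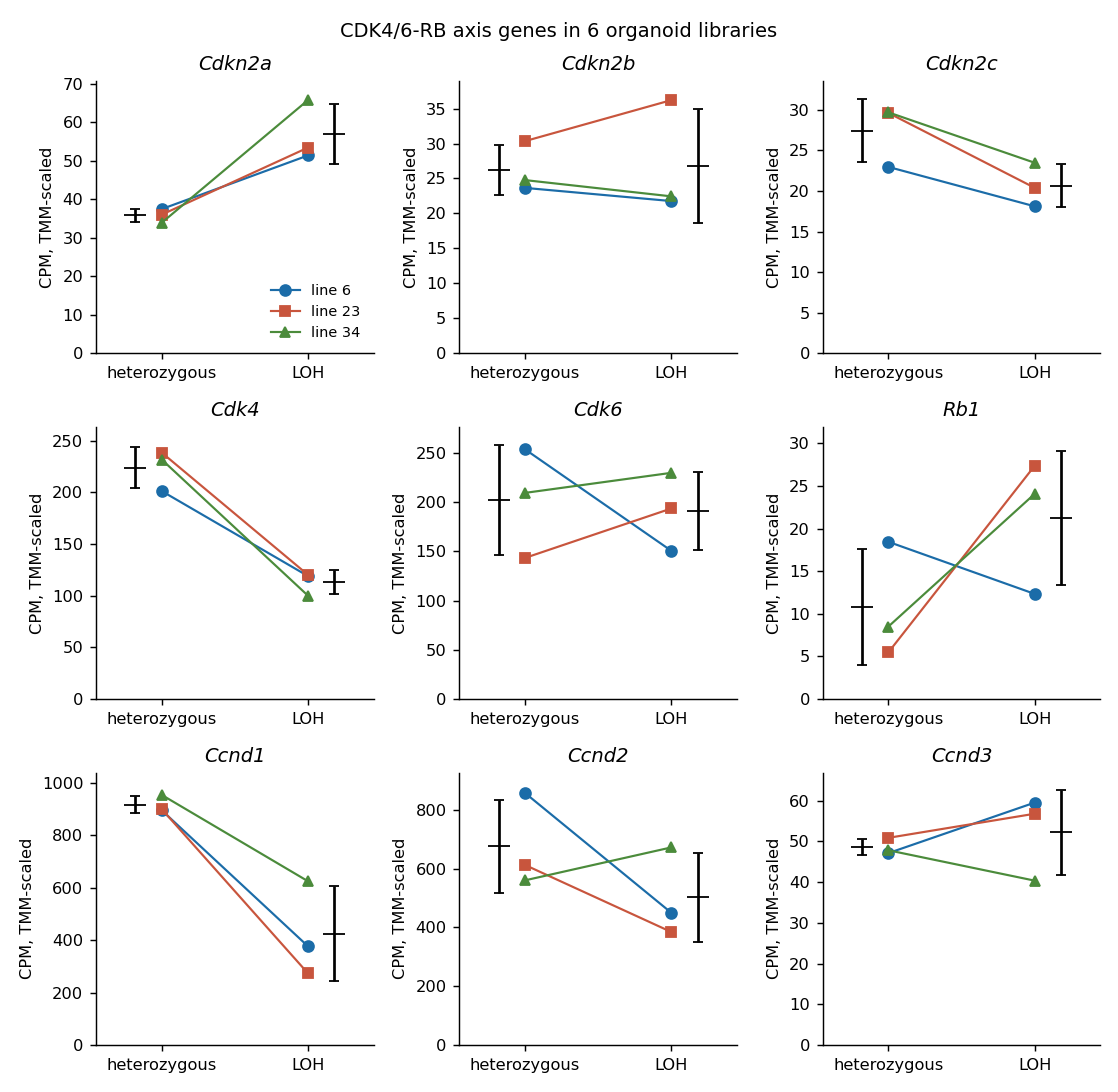
CPM of the 9 members, with 1 panel per gene, 1 symbol per library, a line joining the libraries of an organoid line and black marks for the mean ± SD of 3 libraries; each y axis starts at 0. Cdk4 and Ccnd1 are lower and Cdkn2a is higher in LOH in all 3 lines, while Cdkn2b, Cdk6, Ccnd2, Ccnd3 and Rb1 go both ways.

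Rb1 encodes RB, the substrate of these kinases and the brake on E2F. Rb1 (ENSMUSG00000022105.6; chromosome 14, 73183673 to 73325822, minus strand) gave 18.4, 5.49 and 8.51 CPM from the heterozygous cultures, against 12.3, 27.4 and 24.1 CPM with LOH. Line 6 was lower in LOH and lines 23 and 34 higher, with log2 ratios of -0.58, 2.30 and 1.49. Over all libraries it had a fold change of 0.97 (log2, SE 0.50; edgeR adjusted p 0.271). Without both libraries of line 6, where edgeR called 9.66% of genes, it was 1.84 with an adjusted p of 0.0411, and without heterozygous line 6 alone it was 1.56 (edgeR adjusted p 0.174). Without both libraries of line 23 Rb1 had 0.43 (edgeR adjusted p 0.760), and without both of line 34 it had 0.72 (edgeR adjusted p 0.690). Lpar6 and Rcbtb2 overlap Rb1 on the opposite strand.

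The same split by line appeared across genes of low GC content. The longest Rb1 transcript has 41.2% GC, in the second lowest of 10 equal groups of tested genes. In the lowest group (median 39.2% GC, 1453 genes) the median log2 ratios of lines 6, 23 and 34 were -0.88, 0.90 and 0.78, and in the second they were -0.34, 0.26 and 0.26. From the third group up all medians lay between -0.21 and 0.19. Cdk4 has 53.3% GC, and no other member was under 45.1%. With a smooth trend on GC and length removed, an alternative chosen after seeing the data in which edgeR called 7.26% of genes, Rb1 had 0.84 (edgeR adjusted p 0.171) and Cdk4 -0.91 (edgeR adjusted p 0.0238). Cdk6 moved from -0.08 to -0.37 (edgeR adjusted p 0.247) with that trend removed. Its log2 ratios in lines 6, 23 and 34 were -0.75, 0.43 and 0.13. In its own GC group (median 44.7% GC) the line medians ran only from -0.10 to 0.015. The part of base composition and length in the Rb1 and Cdk6 values was not tested further.

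**Figure D3:**
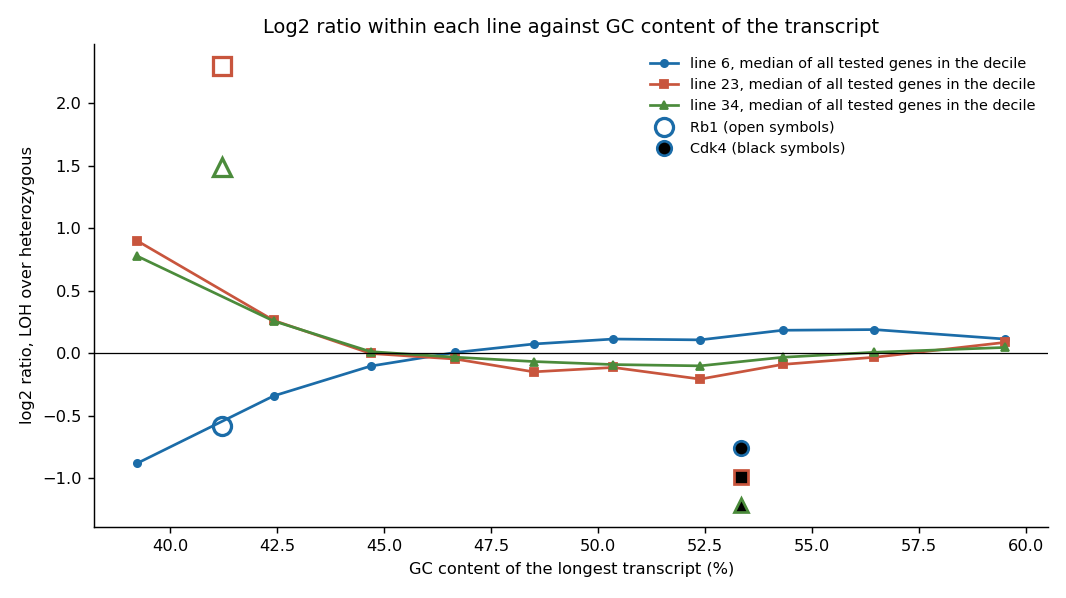
Median log2 ratio of LOH over heterozygous within each organoid line (y axis) against the median GC percent of the longest transcript in 10 groups of tested genes (x axis), with Rb1 as open and Cdk4 as black symbols. Line 6 runs down and lines 23 and 34 run up at low GC, as Rb1 does, while Cdk4 is below 0 in all 3 lines at 53.3% GC.

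Across the 9 members, 4 had a positive and 5 a negative log2 fold change, with a median of -0.08 beside 0.06 for all genes. The groups did not overlap in CPM for 3 of 9 (Cdkn2a, Cdk4 and Ccnd1), a share of 33.3% beside 32.8% of all tested genes. Per length, the order in the heterozygous libraries was Ccnd1, Cdk4, Ccnd2, Cdkn2a, Cdk6, Ccnd3, Cdkn2b, Cdkn2c and Rb1, from 295 ± 32 down to 3.71 ± 2.16 TPM (SD, n = 3 each). Only Cdk6 and Ccnd3 overlapped with a neighbour in that order. In the LOH libraries the order was the same apart from Ccnd3 before Cdk6, but the first 4 genes overlapped from each to the next (105.4 ± 36.9, 87.9 ± 29.9, 83.1 ± 18.9 and 66.0 ± 4.1 TPM). Ccnd3 and Cdk6 overlapped there too, so their change of place is not resolved, and so did Cdk6 and Cdkn2b. The Cdkn2a and Cdk4 ranges overlapped in the LOH libraries (62.1 to 70.2 and 59.8 to 119 TPM) and not in the heterozygous ones (49.6 to 64.9 and 205 to 258 TPM).

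**Figure D4:**
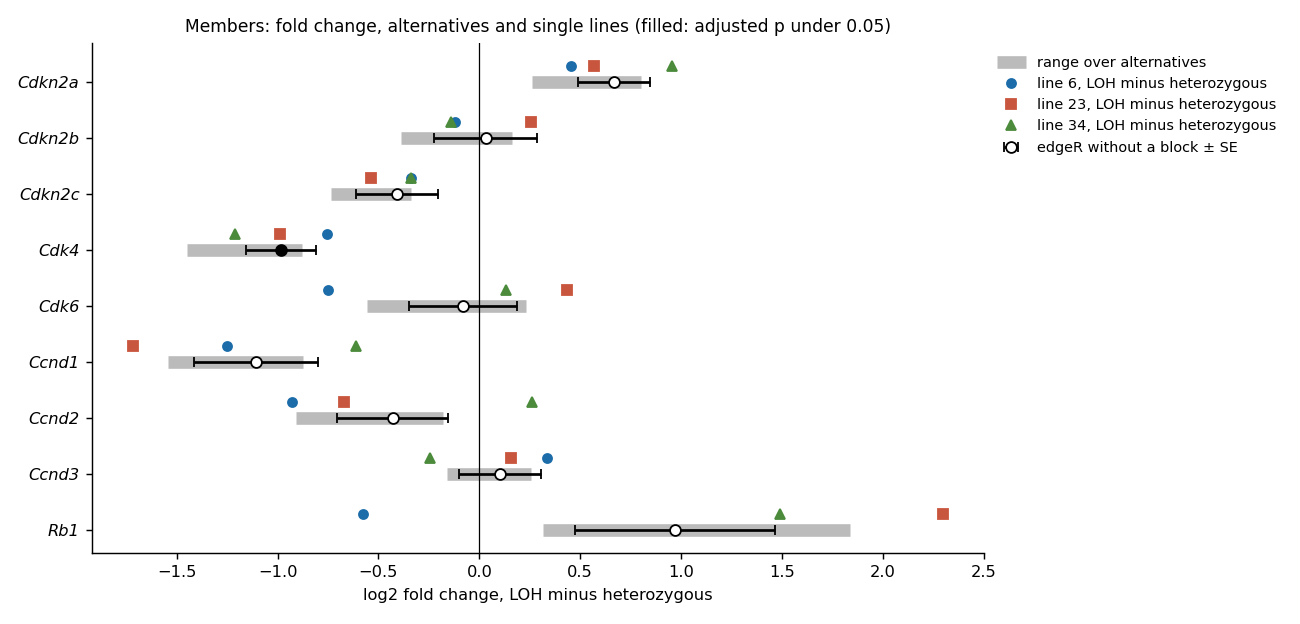
Log2 fold change of each member (x axis, LOH minus heterozygous) from edgeR without a block with its SE (circle, filled where the adjusted p is under 0.05), the range over 20 alternative analyses (grey bar) and the log2 ratio within each organoid line (coloured symbols). Cdk4 is the filled circle, at -0.98, and its grey bar stays below 0.

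The wider pathway was read from a list of 28 other genes, all tested. They include Cdkn2d, CDK2 and its cyclins E, the CDK inhibitors of the CIP/KIP group, the RB relatives and the E2F family. Among them 1 passed, lower in LOH, against 5.21% of all genes. The median log2 fold change was -0.31, with 9 above and 19 below 0. E2f7, an E2F family member that represses transcription, fell from 24.7, 19.7 and 19.6 CPM to 11.2, 9.48 and 8.38 CPM, with no overlap. Its log2 fold change was -1.14 (SE 0.22) with an edgeR adjusted p of 0.0358, which became 0.0929 with the line as a block and 0.141 to 0.165 without any 1 heterozygous library. It was 0.0717 without LOH line 23, 0.0572 without LOH line 34, and 0.220 and 0.209 without both libraries of line 23 or 34. In the settings without 1 heterozygous library or without line 23 or 34, edgeR called 0 of all genes. Ccne2, which encodes cyclin E2, had -1.16 (edgeR adjusted p 0.0704), and Ccnh, which encodes the cyclin of the kinase that activates CDKs, had -0.71 (edgeR adjusted p 0.0816). Without LOH line 6, with 16.2% of all genes called, 9 of the 28 passed, Ccnh among them, and the median was -0.50. Without LOH line 23, with 3.02% of all genes called, the count was 0 and the median -0.19. Without LOH line 34, with 5.27% of all genes called, the count was also 0. It was 0 too without any 1 of the heterozygous libraries, where edgeR called 0 of all genes, so that count is not particular to the list. Without both libraries of line 6 the median was -0.53.

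RB-E2F target transcripts, which code for replication and nucleotide synthesis proteins, lay mostly below 0, and how many passed turned on line 6. Of 29 genes, all tested, 26 were below 0 and 0 passed in edgeR's test, although 11 had an unadjusted p under 0.05, as did 3681 of all 14537 genes. The median log2 fold change was -0.57, and within lines 6, 23 and 34 the medians were -0.10, -0.97 and -0.91. The smallest p-values belonged to Rrm2, a subunit of ribonucleotide reductase (188.5 ± 23.8 and 103.7 ± 20.8 CPM, edgeR adjusted p 0.0633), Uhrf1, a partner of the maintenance DNA methyltransferase (edgeR adjusted p 0.0661), and Mcm6, a subunit of the replicative helicase (edgeR adjusted p 0.0695). Without LOH line 6, when edgeR called 16.2% of all genes, 18 of the 29 passed, Rrm2, Uhrf1 and Mcm6 among them, and the median was -0.98. Without both libraries of line 6 (9.66% of genes called) 14 passed, with the GC and length trend removed (7.26%) 2 did, with DESeq2 (15.8%) 9 and with limma on log2(TPM + 1) (15.0%) 11.

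Regulators of the Cdkn2a locus and partners of ARF formed a list of 24 genes, of which 22 were tested and Tbx2 and Tbx3 were too low. Their median log2 fold change was -0.16, with 9 above and 13 below 0, and 1 passed, beside 5.21% of all genes. Without LOH line 6, with 16.2% of all genes called, 6 of the 22 passed, Id1 among them. Without LOH line 23 the median was -0.075, without both libraries of line 6 it was -0.034 and without both of line 34 it was -0.24. Mdm2, the p53 ubiquitin ligase that ARF binds and that p53 itself activates, fell from 74.0, 68.6 and 68.5 CPM to 22.2, 30.6 and 35.1 CPM. Its log2 fold change was -1.26 (SE 0.22) with an edgeR adjusted p of 0.0284, or 0.0905 with the line as a block and 0.123 to 0.143 without any 1 heterozygous library. It was 0.0569 without LOH line 23, and 0.204 and 0.147 without both libraries of line 23 or 34. In the settings without 1 heterozygous library or without line 23 or 34, edgeR called 0 of all genes. E2f1 also stands in the pathway list and Ezh2 in the target list. Npm1, the nucleolar protein that holds ARF, had -0.68 (edgeR adjusted p 0.073), and Id1, a repressor of Ink4a, had -1.19 (edgeR adjusted p 0.0958).

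**Figure D5:**
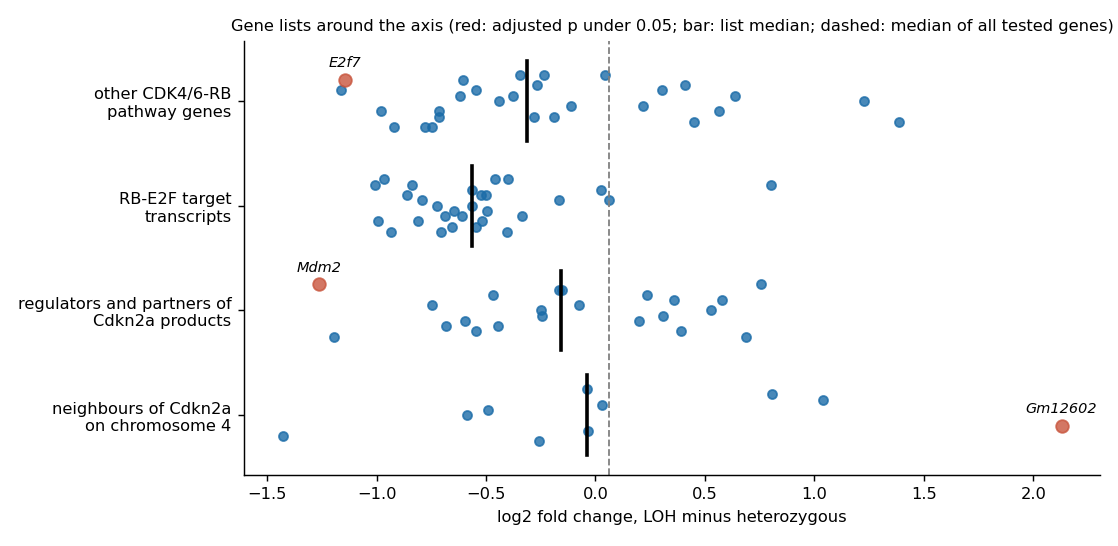
Log2 fold change (x axis) of each tested gene of 4 lists around the axis, with red for an adjusted p under 0.05, a black bar for the list median and a dashed line for the median of all tested genes (0.06); height within a row has no meaning. The RB-E2F targets lie mostly left of the dashed line, with a median of -0.57, and none is coloured red.

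Genes next to Cdkn2a on chromosome 4 showed no shared direction. They were taken as the 5 nearest tested genes on each side, which reached 524 kb at lower and 5244 kb at higher coordinates, measured between gene midpoints. Of these 10, 4 were above and 6 below 0, with a median of -0.04, and 1 passed, beside 5.21% of all genes. Mtap, the metabolic gene often deleted together with CDKN2A in human tumours, had 116, 140 and 143 CPM heterozygous and 122, 67.2 and 76.1 CPM LOH (log2 fold change -0.59, edgeR adjusted p 0.214). Without LOH line 6 Mtap had -0.93 (edgeR adjusted p 0.0260), and without both libraries of line 6 -1.01 (edgeR adjusted p 0.0430). Gm12602, a noncoding transcript of the interval (89100664 to 89128226), passed as higher, from 0.3, 0.297 and 0.334 CPM to 1.34, 1.36 and 1.444 CPM. Its heterozygous counts were under the limit of the filter on low counts. It entered the test through the LOH libraries alone, so its call is no support. It rests on few reads, 9, 4 and 10 counts against 23, 36 and 31, and its edgeR adjusted p of 0.0308 became 0.109 with the line as a block, 0.156 to 0.192 without any 1 heterozygous library and 0.0628 without a filter on low counts. It was 0.0605 without LOH line 23, and 0.0605, 0.208 and 0.209 without both libraries of line 6, 23 or 34. In the settings without 1 heterozygous library or without line 23 or 34, edgeR called 0 of all genes. Dmrta1 had 0 counts in 4 libraries and was not tested. The remaining neighbours, Gm13283, Gm26867, Gm12603, Zfp352, Gm12669, Tusc1 and Caap1, ranged from -1.43 (Tusc1, edgeR adjusted p 0.163) to 1.04 (Zfp352, edgeR adjusted p 0.628).

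The genes whose pattern over the 6 libraries lay nearest to Cdkn2a were Cux1, App and Klf5, and nearest to Cdk4 were Polr3b, Glud1 and Trim32. Likeness was the root mean square distance of centred log2 CPM over 10075 genes with at least 5 CPM, and the distances were 0.058, 0.077 and 0.086 for the first set and 0.059, 0.065 and 0.073 for the second. These points share libraries and depth, and the likeness is a description.

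The libraries held 13680458 to 27917277 expected counts each, and the totals of the groups overlapped. Trp53 had 77.3, 76.3 and 86.5 CPM heterozygous and 73.5, 52.5 and 47.4 CPM LOH, with a log2 fold change of -0.47 (edgeR adjusted p 0.227), or -0.72 (edgeR adjusted p 0.0368) without LOH line 6. Gene counts do not separate its alleles. All 6 epithelial markers were detected in every library, with summed levels of 3305 to 3778 TPM heterozygous and 2577 to 4925 TPM LOH, and fibroblast, endothelial, acinar and endocrine sums stayed far lower. In every library fibroblast markers summed to at most 0.11 TPM and endothelial ones to at most 0.1 TPM. Leukocyte markers summed to 1.76 to 2.21 TPM heterozygous and 2.63 to 10.8 TPM LOH, nearly all of it Cd68, while Ptprc, which defines leukocytes, stayed at or under 0.05 TPM. The labels name lines and no animals, so the p-values measure the spread between these 3 lines, which may be technical in part.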

How the data were processed

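RNA was sequenced from 6 organoid cultures (3 heterozygous, 3 LOH) with TruSeq Stranded Total RNA reagents, per the labels. A further allele that all groups share is not reported here. Per the submitters' processing notes, FastQC 0.11.5, STAR 2.5.2b, RSEM 1.3.0, DESeq2 1.44.0 and the genome GRCm38.p5 were used; the strand setting is not given in the sources used here. The authors deposited expected counts, which are RSEM's estimated counts per gene and transcript, and TPM, per the file headers. The deposited normalized table holds a signal, the truncated count divided by 1 size factor per library in 100% of its values above 0 (tolerance 0.01), and served here for names only. Coordinates came from GENCODE release 21 (GRCm38), which held 53274 of 53379 gene identifiers, and promoters from RefSeq.

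Expected counts were rounded, filtered with filterByExpr, scaled by TMM and tested two-sided without a block with edgeR 4.0.16 (R 4.3.3), for 14537 genes and 36699 transcripts, with Benjamini-Hochberg adjustment. SE is the log2 fold change over the square root of F, and 2 counts were added as a prior for log2 CPM. Alternatives were RLE and upper quartile scaling, other filters, the protein-coding table only, the line as a block, libraries or lines left out, DESeq2 1.42.0, and limma 3.58.1 on log2 TPM with pseudocounts of 1 and 0.1 where TPM reached 1 in 3 libraries; a loess correction (span 0.5) for GC and length was added after seeing the data. A count of 3 was worth 0.1 to 0.223 CPM, which covers counting error only. Summed levels had a planned permutation test that is not given, because the members were chosen with results known.

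Lines pair the libraries by their titles. Deviations from group means correlated at -0.30, 0.01 and 0.29 within lines 6, 23 and 34, and at -0.39 to 0.30 between different lines. Members, lists and the rule for names were chosen with earlier results of these data known. Named were the members, in each list the genes that passed or, where fewer than 3 passed, the 3 with the smallest p, all neighbours, and the 3 genes most like Cdkn2a and Cdk4. A symbol held by several identifiers was read from the most counted of them. Figures used Python 3.11.15 and matplotlib 3.10.9.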

Additional observations from a re-analysis of the deposited data

Results flagged for a closer look

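On scaled counts (CPM), the lines moved in opposite directions between heterozygous and LOH libraries for 5 of the 9 members. On TPM only Rb1 and Ccnd3 did so, and Cdkn2b, Cdk6 and Ccnd2 were lower in the LOH library of every line. The values that follow are on scaled counts. The gap between the most positive and the most negative log2 ratio was 2.88 for Rb1, 1.19 for Ccnd2, 1.18 for Cdk6, 0.58 for Ccnd3 and 0.40 for Cdkn2b. With 1 library per genotype in each line, the difference between lines was not tested. For Rb1 and Cdk6 line 6 stood apart from lines 23 and 34, for Ccnd2 and Ccnd3 line 34 did, and for Cdkn2b line 23 did.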

How the results depend on the processing

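The number of genes that passed was 757, between 751 and 979 with other scaling, other filters except at least 10 counts (627) or the protein-coding table, and 1054 with the GC and length trend removed. It was 213 with the line as a block, 487 with the block and the GC and length trend removed, 2290 with DESeq2, 1790 and 1214 with limma on log2(TPM + 1) and log2(TPM + 0.1), 1422 without line 6, and 0 without line 23 or line 34 (2253 and 2097 at an unadjusted p under 0.05). Leaving out 1 library gave 0 to 2449; edgeR called 0 without heterozygous line 6, 23 or 34, although 2272 to 2966 genes had an unadjusted p under 0.05. Of the calls 68.2% were higher in LOH, 83.1% with the block, 46.3% without LOH line 6, and 15.8% and 20.5% on TPM. For transcripts the count was 10, 103 without a filter, 322 with at least 10 counts, 2384 with DESeq2, 1064 and 225 on TPM, and 0 with the block, without any line or without any library (2755 to 7659 transcripts at an unadjusted p under 0.05).

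Signs flipped for Cdkn2b (-0.0024 with the block, -0.13 without line 23, -0.37 and -0.39 on TPM), Cdk6 (0.23 without line 6) and Ccnd3 (-0.050 without line 6, -0.15 and -0.16 on TPM). Among neighbours they flipped for Gm13283 (0.31 without line 34, 0.021 with the GC and length trend removed), Gm12603 (0.17 without line 6, 0.16 without line 23), Zfp352 (-0.50 without line 34) and Caap1 (0.041 without line 6). With 1 library left out, values ran from -0.25 to 0.14 for Cdkn2b, -0.28 to 0.086 for Cdk6, -0.040 to 0.26 for Ccnd3, -0.33 to 0.32 for Gm13283, -0.57 to 0.23 for Gm12603 and -1.73 to 2.26 for Zfp352. List medians on log2(TPM + 1) and log2(TPM + 0.1) were -0.72 and -0.78 for the other pathway genes, -0.50 and -0.54 for the regulators, -0.48 and -0.57 for the neighbours, and -1.08 on the latter for the RB-E2F targets, which had -1.06 without line 6. The neighbours had -0.23 with at least 10 counts, -0.16 with the block, 0.053, -0.30 and -0.42 without line 6, 23 or 34, -0.14 in the protein-coding table and -0.15 with the block and the GC trend removed, and between -0.41 and -0.037 with 1 library left out. Over the protein-coding table and on summed CPM, log2 differences were 0.39 and 0.22 for the INK4 sum, -0.89 and -0.49 for Cdk4 with Cdk6 and -0.78 and -0.79 for the cyclins, and the INK4 sum with the Ink4a transcript alone had -0.65. The causes were not tested. The Ink4a share differed by -12.0 to -6.78 points with 1 library left out. Among the members the block changed only the call of Cdk4 (adjusted p 0.105). Depth limits Ink4a (as few as 13.91 estimated counts in a library), Gm12602 (4) and Tusc1 (3).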

Other observations

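Ccnd3 had a short transcript (ENSMUST00000182539.7; chromosome 17, 47596068 to 47599094, plus strand), that was singled out after its values were seen. It was listed at 0 TPM in all 3 heterozygous libraries and had 4.26, 1.07 and 2.59 TPM in LOH lines 6, 23 and 34, from 60.03, 25.65 and 54.65 estimated counts. The most abundant Ccnd3 transcript (ENSMUST00000182209.7) had 31.4, 27.1 and 27.2 TPM heterozygous and 27.5, 23.4 and 14.8 TPM LOH. With 0 counts in the heterozygous libraries, the short form passed the filter on low counts through the LOH libraries alone. Its p-values are therefore no support and are not given. The reads are shared among 21 annotated Ccnd3 transcripts by an estimate, and the part of that estimate in the listed 0 was not tested.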
